A study of Mus musculus with 18 samples.

Results

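The 37 genes described here carry glucose into the cell, through glycolysis to lactate, or into the pentose phosphate pathway. They were listed by name as glucose transporters, glycolytic enzymes and their regulators, lactate enzymes and transporters, pentose phosphate enzymes and Hif1a, and matched by gene identifier to symbols of the GRCm38 annotation. All 37 were found among the 51912 genes of the table. The rule uses no measured value, but the list was drawn up with earlier results of these data known.

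RNA was sequenced from mouse B cells of 2 genotypes on the C57BL/6 background, WT and Sh3gl1-/-. Sh3gl1 encodes endophilin A2, an adaptor protein of endocytosis, and the mice lacked it in every cell type, not only in B cells. Transitional cells, the immature stage that B cells pass through in the spleen, and follicular cells, the main mature population, were sorted by flow cytometry. Each population was taken untreated from WT and from Sh3gl1-/- mice, and follicular cells of both genotypes were also cultured with CD40L. The culture lasted 14 h per the labels, was overnight per the methods, and is given as longer in the legends. CD40L, a protein of helper T cells, binds CD40 on the B cell and drives activation. The 6 groups held 3 biological replicates each, from littermates, giving 18 libraries. The untreated follicular cells were taken ex vivo, per the methods, and no follicular cells cultured without CD40L were analysed here. The response below is therefore that to CD40L and culture together, and these cannot be told apart.

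Glycolysis splits glucose into pyruvate and yields ATP without oxygen. Hexokinases trap glucose as glucose 6-phosphate, phosphofructokinase commits it to glycolysis, and lactate dehydrogenase turns pyruvate into lactate so that the pathway can keep running. The pentose phosphate pathway branches off at glucose 6-phosphate. Its oxidative arm makes NADPH and its non-oxidative arm makes ribose 5-phosphate for nucleotides. Resting B cells have a low metabolic rate, and activated lymphocytes take up more glucose and release lactate as they prepare to divide. HIF1A and MYC are transcription factors known to act on many of these genes.

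The promoters of 7 members are shown as examples of members called in the CD40L response in both genotypes. They are not the 7 with the largest changes: Gapdh and Tpi1 rose more in WT than Ldha or Slc16a1 and are not shown. Ldha, Slc16a1, Pgk1, Hk2, Pfkfb3 and Slc2a6 rose with CD40L, and Pdk1 fell. Each sequence runs 5′ to 3′ on the gene's own strand from 250 bases before to 50 bases after the first listed start in RefSeq (GRCm38.p6). Capitals mark ACGTG, the core of the hypoxia response element, on either strand (CACGT on the other), and the E-box CACGTG, which holds that core on both strands.
Ldha, chr7:46845554-46845853, plus strand: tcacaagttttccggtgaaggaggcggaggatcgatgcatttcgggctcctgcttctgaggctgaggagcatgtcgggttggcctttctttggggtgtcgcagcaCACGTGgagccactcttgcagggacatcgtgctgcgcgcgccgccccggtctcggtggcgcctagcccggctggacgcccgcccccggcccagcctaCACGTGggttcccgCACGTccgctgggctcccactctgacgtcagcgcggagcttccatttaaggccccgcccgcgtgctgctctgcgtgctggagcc
Slc16a1, chr3:104638414-104638713, plus strand: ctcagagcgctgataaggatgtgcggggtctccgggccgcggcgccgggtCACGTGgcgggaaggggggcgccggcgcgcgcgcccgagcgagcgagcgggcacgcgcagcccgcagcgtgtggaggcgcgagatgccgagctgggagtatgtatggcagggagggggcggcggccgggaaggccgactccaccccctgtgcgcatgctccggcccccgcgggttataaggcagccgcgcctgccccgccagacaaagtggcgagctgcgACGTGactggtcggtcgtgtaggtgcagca
Pgk1, chrX:106186850-106187149, plus strand: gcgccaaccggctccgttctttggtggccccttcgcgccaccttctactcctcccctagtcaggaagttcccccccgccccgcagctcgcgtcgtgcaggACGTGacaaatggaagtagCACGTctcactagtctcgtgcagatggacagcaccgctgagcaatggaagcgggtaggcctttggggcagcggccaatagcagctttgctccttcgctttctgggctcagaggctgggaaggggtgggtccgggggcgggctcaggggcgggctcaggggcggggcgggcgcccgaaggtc
Hk2, chr6:82774405-82774704, minus strand: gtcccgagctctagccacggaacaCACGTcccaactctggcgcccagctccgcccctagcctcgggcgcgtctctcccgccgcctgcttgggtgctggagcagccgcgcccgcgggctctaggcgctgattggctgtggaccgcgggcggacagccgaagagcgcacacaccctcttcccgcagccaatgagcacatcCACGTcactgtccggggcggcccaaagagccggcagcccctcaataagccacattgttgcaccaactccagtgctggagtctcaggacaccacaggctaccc
Pfkfb3, chr2:11553880-11554179, minus strand: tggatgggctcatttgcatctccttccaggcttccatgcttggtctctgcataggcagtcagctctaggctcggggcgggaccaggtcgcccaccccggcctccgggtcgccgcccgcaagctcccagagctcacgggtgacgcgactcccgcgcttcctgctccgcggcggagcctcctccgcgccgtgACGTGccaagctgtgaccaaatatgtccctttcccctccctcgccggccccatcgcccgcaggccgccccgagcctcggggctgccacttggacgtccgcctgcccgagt
Slc2a6, chr2:27027949-27028248, minus strand: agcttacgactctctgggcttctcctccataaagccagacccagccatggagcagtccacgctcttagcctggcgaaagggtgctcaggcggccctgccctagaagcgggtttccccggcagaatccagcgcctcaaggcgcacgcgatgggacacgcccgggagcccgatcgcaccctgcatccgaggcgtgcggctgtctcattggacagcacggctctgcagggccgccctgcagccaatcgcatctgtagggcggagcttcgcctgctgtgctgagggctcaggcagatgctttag
Pdk1, chr2:71872974-71873273, plus strand: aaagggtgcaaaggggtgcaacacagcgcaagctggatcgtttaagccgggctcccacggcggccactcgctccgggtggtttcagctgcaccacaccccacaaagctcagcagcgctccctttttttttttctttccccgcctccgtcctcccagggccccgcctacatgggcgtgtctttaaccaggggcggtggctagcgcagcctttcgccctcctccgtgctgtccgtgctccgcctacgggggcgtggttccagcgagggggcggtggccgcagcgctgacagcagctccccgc

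Of the 37 members, 36 had a promoter entry; Slc2a3 had none. The E-box CACGTG was found in 6 of 36 members (16.7%), namely Pfkm, Ldha, Slc16a1, Pfkfb2, Pdk2 and Hif1a, and in 7.24% of 27025 first listed promoters. The core ACGTG, counted on both strands and so also within each E-box, was found in 17 members (47.2%) and in 19.7% of those promoters. GGGCGG, the GC box, was found on either strand in 25 members (69.4%) against 35.9%. The 27025 promoters were not matched to the members in expression or base content, so the higher shares cannot be ascribed to any 1 motif. Ldha held the most cores of the 7 shown, with 5, and Slc2a6 and Pdk1 held 0. Among members not shown, Aldoa, Tpi1, Pkm and Tkt rose in both genotypes and held 0 cores, and Gapdh and Pgam1 rose and held 1 each. Pfkfb2, with an E-box, fell in both. These are matches of letters in a fixed window and not measurements of binding.

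Library totals ranged from 12404665 to 18366011 counts, so the floor of 3 counts lay at 0.163 to 0.242 CPM. Levels are given as CPM, counts scaled to library size with TMM factors, and genes are compared with each other only as TPM, which is also scaled to transcript length. Sh3gl1 was at 377 to 929 counts in the WT libraries and at 1 to 22 in the Sh3gl1-/- libraries, so genotype matched the labels. Cd79a and Ms4a1, which define B cells, were at 2017 CPM or more in all 18 libraries, and Cd93, a marker of transitional cells, was at 57.4 to 85.6 CPM in transitional and 5.38 to 26.3 CPM elsewhere. The other cell types were not absent. Summed over 7 erythroid genes, the untreated libraries held 1436 to 9529 CPM and the CD40L libraries 6.55 to 362 CPM. In bulk RNA, fewer cells of a type and less RNA per cell cannot be told apart.

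Summed over all 37 members, expression was higher after CD40L than in any untreated group. The sum is weighted to abundant members and does not describe each one. Aldoa and Eno1 had the highest mean TPM over the 18 libraries, 632 and 592. The sum was 2601 to 2812 TPM in WT and 2090 to 2226 TPM in Sh3gl1-/- transitional cells, and 2355 to 2598 and 2268 to 2503 TPM in WT and Sh3gl1-/- follicular cells. After CD40L it was 3565, 4533 and 5019 TPM in the WT replicates and 4217, 3403 and 4887 TPM in the Sh3gl1-/- replicates. All 6 CD40L libraries lay above all 12 untreated libraries, and WT replicate 1 and Sh3gl1-/- replicate 2 were the lowest of their groups.

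**Figure D1:**
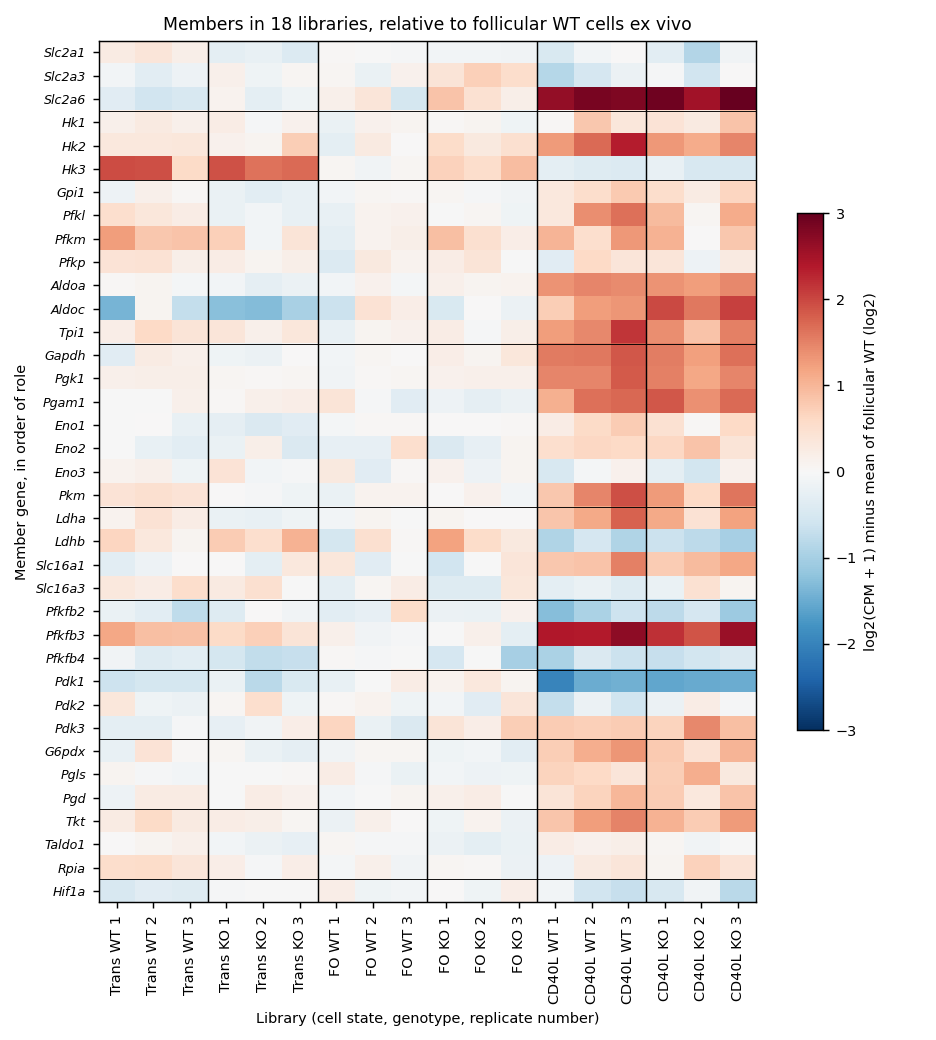
Each cell is the level of 1 member in 1 library, as log2(CPM + 1) minus the mean of the 3 untreated follicular WT libraries; red is higher and blue lower, and lines separate the 6 groups and the roles. Most rows turn red in the last 6 columns (CD40L), with Slc2a6 and Pfkfb3 darkest and Pdk1, Pfkfb2 and Slc2a3 blue.

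The first comparison asked which members changed when follicular cells were treated with CD40L. In WT cells 20 members rose and 5 fell among 36 tested, together 25, while 49.3% of the 14460 genes tested were called, 23.6% higher and 25.7% lower. Among the same members 19 rose and 5 fell in Sh3gl1-/- cells, together 24, while 42.4% of all genes were called, 20.6% higher and 21.8% lower. The median log2 fold change over the members was 0.72 in WT and 0.58 in Sh3gl1-/- cells, and over all genes tested -0.08 and -0.03. The groups did not overlap, with every CD40L library higher, for 22 members in WT and 22 in Sh3gl1-/- cells, where 26.9% and 26.2% of all genes did so, and with every CD40L library lower for 5 in each, where 29.6% and 27.0% did so. Tests are edgeR's quasi-likelihood test, two-sided, with Benjamini-Hochberg adjustment over all genes tested, and a gene is called at an adjusted p under 0.05. The fits behind these tests held no term for replicate number. Of the members, 22 were called in both genotypes, 3 in WT only by the threshold (Pfkm, Eno1 and Pfkfb4) and 2 in Sh3gl1-/- only (Hk3 and Eno2). Scaling by library totals alone in place of TMM moved the median of all genes in WT cells to -0.22. The calls of 20 of 25 members in WT and 20 of 24 in Sh3gl1-/- cells were kept whichever library was left out. Genes of other cells moved too: all 7 erythroid, all 7 T cell and all 4 NK cell markers were lower after CD40L in both genotypes, and the sum of 6 genes of CD40-activated B cells went from between 159.5 and 202 CPM untreated to between 1056 and 1905 CPM treated. That sum was lowest in the same treated library of each genotype as the member sum, WT replicate 1 and Sh3gl1-/- replicate 2. The part of the other cell types in the members' changes was not tested.

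**Figure D2:**
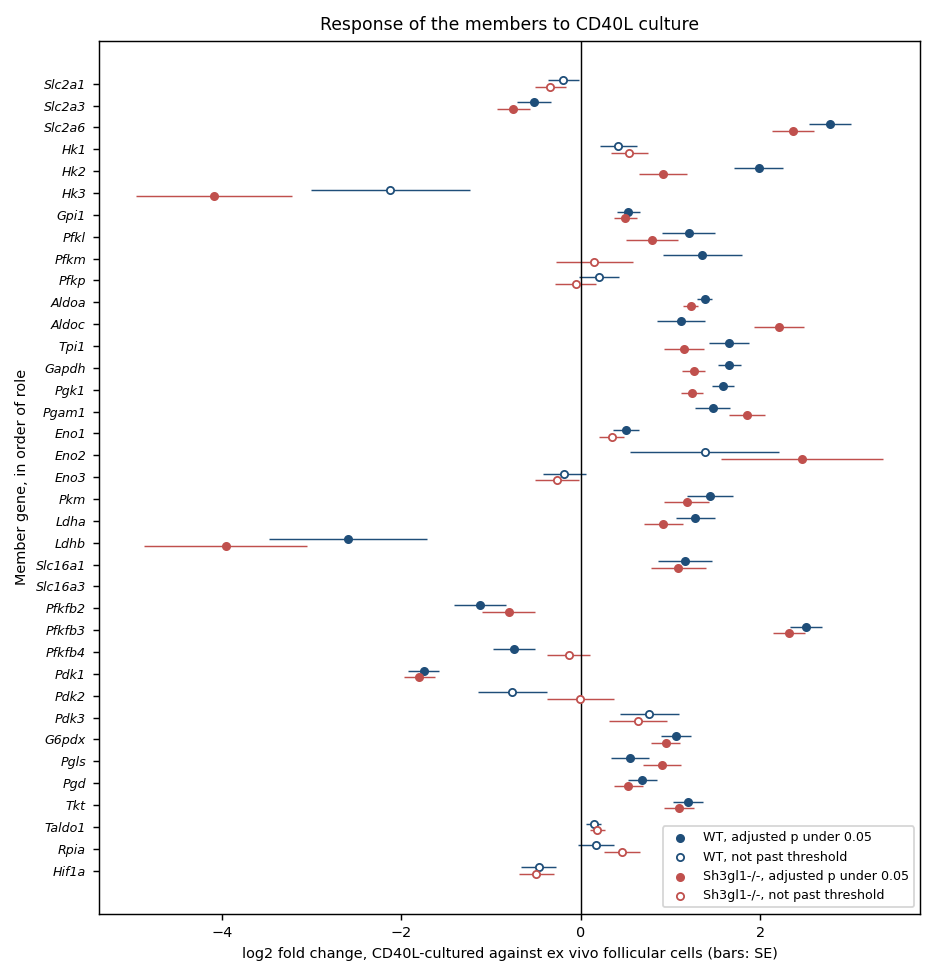
Points are log2 fold changes of CD40L-treated against untreated follicular cells for each member, blue in WT and red in Sh3gl1-/- cells, with bars of 1 SE; filled points passed an adjusted p of 0.05. Slc2a6 and Pfkfb3 lie farthest to the right among the well-counted members and Pdk1 to the left; the fitted values of Hk3 and Ldhb rest on 0 to 6 counts in each CD40L library.

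The 3 glucose transporters moved in different directions. Slc2a6, which encodes GLUT6, a transporter mostly found on membranes inside the cell, was at 13.4, 15.7 and 8.05 CPM in untreated WT follicular cells and at 79.3, 92.7 and 89.3 CPM after CD40L. The Sh3gl1-/- libraries were at 22.5, 16.8 and 13.7 CPM untreated and at 96.6, 73.4 and 106 CPM after CD40L. All CD40L libraries were far above all untreated libraries of both genotypes, with a log2 fold change of 2.78 ± 0.23 (SE, n = 3 per group, edgeR adjusted p = 5.11e-07) in WT and 2.36 ± 0.23 (edgeR adjusted p = 2.42e-06) in Sh3gl1-/- cells. Slc2a3, which encodes the high-affinity transporter GLUT3, was at 54.99, 45.6 and 58.1 CPM in untreated WT cells and 28.5, 37.02 and 46.7 CPM after CD40L. Its WT groups overlapped, since the highest treated library exceeded the lowest untreated one. Without Sh3gl1, Slc2a3 was at 69.6, 86.4 and 76.7 CPM untreated and at 51.5, 35.1 and 53.3 CPM treated, with no overlap. It fell by 0.53 ± 0.19 on the log2 scale in WT (edgeR adjusted p = 0.0311) and by 0.75 ± 0.19 in Sh3gl1-/- cells (edgeR adjusted p = 0.00509). The WT call was lost without follicular WT replicate 1 (adjusted p = 0.0749) or 3 (0.0942), or CD40L WT replicate 1 (0.104) or 2 (0.0701), by the same edgeR test. Slc2a1, which encodes GLUT1, the transporter usually linked to lymphocyte activation, was not called. Its log2 fold change was -0.19 ± 0.17 in WT (edgeR adjusted p = 0.374) and -0.34 ± 0.17 in Sh3gl1-/- cells (edgeR adjusted p = 0.13, and 0.0438 without CD40L Sh3gl1-/- replicate 3).

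Because the transporters can be compared per length as TPM, their shares were also computed. In untreated WT follicular cells Slc2a1 made up 45.1% ± 1.93 (SD, n = 3) of the TPM of the 3 transporters, Slc2a3 40.0% ± 6.60 and Slc2a6 14.9% ± 5.19. After CD40L Slc2a6 went from last to first in WT, at 61.3% ± 2.95, with Slc2a1 at 22.5% ± 0.404 and Slc2a3 at 16.3% ± 2.67. The share of Slc2a6 in Sh3gl1-/- cells went from 17.2% ± 3.80 to 62.4% ± 2.45. Slc2a1 and Slc2a3 did not differ beyond their spread in untreated WT follicular cells, whereas every treated library had Slc2a6 first.

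The hexokinases also differed by isoform. Hk2, the inducible hexokinase bound to mitochondria, was at 4.08, 6.54 and 5.34 CPM in untreated and 14.1, 19.1 and 31.01 CPM in treated WT cells. For Sh3gl1-/- cells the values were 8.18, 6.69 and 7.73 CPM untreated and 14.4, 12.5 and 16.3 CPM treated. The treated libraries lay above the untreated ones in both genotypes, with log2 fold changes of 1.98 ± 0.27 in WT (edgeR adjusted p = 4.46e-05) and 0.92 ± 0.27 in Sh3gl1-/- cells (edgeR adjusted p = 0.0134). Hk1, the constitutive hexokinase, which had the highest mean TPM of the 3 over the 18 libraries, was at 17.8, 22.8 and 21.96 CPM untreated and 21.2, 37.2 and 26.7 CPM treated in WT. The Hk1 values in Sh3gl1-/- cells were 21.4, 22.1 and 19.0 CPM untreated and 27.9, 25.3 and 38.4 CPM treated. In WT the groups overlapped and the log2 fold change was 0.41 ± 0.21 (edgeR adjusted p = 0.112, and 0.0305 without CD40L WT replicate 1). They did not overlap in Sh3gl1-/- cells, where it was 0.54 ± 0.21 (edgeR adjusted p = 0.0503, and 0.0251 to 0.0497 without any 1 of 6 libraries, namely follicular WT replicate 1 or 2, a CD40L WT replicate, or CD40L Sh3gl1-/- replicate 2). Hk3, a hexokinase of myeloid cells, had 7, 5 and 6 counts in untreated and 2, 1 and 1 counts in treated WT libraries. The Sh3gl1-/- libraries had 17, 16 and 23 counts untreated and 3, 0 and 0 treated, where it was called lower (edgeR adjusted p = 0.00186). The treated values are at or under the floor, so no fold is given. The summed level of 8 monocyte or macrophage markers was 117 to 280 CPM in untreated follicular libraries and 47.5 to 96.4 CPM after CD40L. Of the 6 tested, 4 were called lower and 1 higher in each genotype. C1qc was at 0 in all 6 treated libraries. Adgre1 went the other way, from between 4.14 and 9.84 CPM untreated to between 30.9 and 78.4 CPM treated. The part of these cells in the Hk3 result was not tested.

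Upper glycolysis, from glucose 6-phosphate to the triose phosphates, rose in 6 of 7 members in WT and 5 of 7 in Sh3gl1-/- cells, and none was called lower. Aldoa, the main aldolase of these cells, was at 487, 565 and 498 CPM in untreated and 1321, 1414 and 1372 CPM in treated WT cells. In Sh3gl1-/- cells it was at 576, 547 and 553 CPM untreated and 1324, 1228 and 1407 CPM treated. The spread within each group was small beside the gap, and Aldoa rose by 1.38 ± 0.08 (edgeR adjusted p = 2.67e-08) and 1.22 ± 0.08 (edgeR adjusted p = 9.32e-08) on the log2 scale. Tpi1, which interconverts the triose phosphates, was at 54.7, 67.7 and 69.3 CPM untreated and 152, 175 and 287 CPM treated in WT, and at 74.2, 61.9 and 72.2 CPM against 169, 116 and 182 CPM in Sh3gl1-/- cells. Its treated libraries were all above the untreated ones, with log2 fold changes of 1.65 ± 0.22 and 1.15 ± 0.22. Aldoc, the brain-type aldolase, was low in untreated cells, at 5.12, 11.9 and 9.93 CPM in WT and 5.93, 8.54 and 7.37 CPM in Sh3gl1-/- cells. After CD40L it was at 14.8, 21.7 and 22.9 CPM in WT and at 36.3, 27.6 and 38.6 CPM in Sh3gl1-/- cells. All treated Sh3gl1-/- libraries were above all treated WT libraries, and the log2 fold changes were 1.11 ± 0.27 in WT and 2.21 ± 0.28 in Sh3gl1-/- cells.

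Among the phosphofructokinase subunits, which form the main control point of the pathway, Pfkl rose in both genotypes, by 1.20 ± 0.29 in WT and 0.79 ± 0.29 in Sh3gl1-/- cells on the log2 scale. The Sh3gl1-/- call (edgeR adjusted p = 0.0426) was lost when CD40L Sh3gl1-/- replicate 1 or 3 or any of the follicular Sh3gl1-/- replicates was left out, where the edgeR adjusted p lay between 0.0663 and 0.14. Pfkp, which had the highest mean TPM of the 3 subunits over the 18 libraries, was not called, with log2 fold changes of 0.20 ± 0.23 and -0.06 ± 0.23. Its exons overlap those of Pitrm1 on the opposite strand, which had 590 to 4450 counts against 837 to 1695 for Pfkp, so its level and its place among the subunits are uncertain. Pfkm had only 15 to 81 counts in each of the 18 libraries; its WT log2 fold change of 1.35 ± 0.44 (edgeR adjusted p = 0.0203) was lost without follicular WT replicate 1 (0.0785) or CD40L WT replicate 3 (0.086). Exons of Pfkm overlap those of Senp1 on the opposite strand, which had 829 to 1504 counts, so reads of the 2 genes may not be told apart. Gpi1, which makes fructose 6-phosphate, rose by 0.53 ± 0.13 and 0.49 ± 0.13 on the log2 scale.

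Lower glycolysis, which yields ATP, rose in 5 of 7 members in each genotype. Gapdh was at 85.2, 94.9 and 91.4 CPM in untreated and 266, 273 and 331 CPM in treated WT cells, and at 105, 95.1 and 116 CPM against 264, 215 and 286 CPM in Sh3gl1-/- cells. Its log2 fold changes were 1.65 ± 0.13 (edgeR adjusted p = 2.65e-07) and 1.26 ± 0.13 (edgeR adjusted p = 3.81e-06), with no overlap. Gapdh has 99 near-identical copies in the annotation, which held 6.08% to 19.65% of the counts of Gapdh and its copies, so its level is uncertain by the reads divided among them. Pgk1, the first ATP-yielding enzyme, was at 104, 115 and 118 CPM in untreated and 312, 310.0 and 403 CPM in treated WT cells, a log2 fold change of 1.58 ± 0.12. Pgam1, the mutase that follows, was at 61.1, 55.6 and 59.9 CPM in untreated and 250.3, 175 and 221 CPM in treated Sh3gl1-/- cells. Every treated library of either gene lay above every untreated one, and Pgam1 rose by 1.85 ± 0.20 on the log2 scale in Sh3gl1-/- and 1.47 ± 0.20 in WT cells. Pkm, the pyruvate kinase of these cells, was at 313, 388 and 387 CPM untreated and 634, 999 and 1378 CPM treated in WT, and rose by 1.44 ± 0.26; in Sh3gl1-/- cells it rose by 1.18 ± 0.25.

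Enolase, the step before pyruvate kinase, was high already in untreated cells and changed less. Eno1 was at 869.5, 927 and 938 CPM in untreated and 1057, 1348 and 1546 CPM in treated WT cells. The Sh3gl1-/- libraries were at 922, 925 and 930.2 CPM untreated and 1245, 933 and 1389 CPM treated. All treated libraries exceeded the untreated ones, Sh3gl1-/- replicate 2 only just, with a log2 fold change of 0.50 ± 0.14 in WT (edgeR adjusted p = 0.00883) and 0.34 ± 0.14 in Sh3gl1-/- cells (edgeR adjusted p = 0.0637). Without that replicate the Sh3gl1-/- value was 0.50 and its edgeR adjusted p 0.00502. Eno2, the neuronal enolase, stayed at or under 1.44 CPM and 18 counts in every library. In WT it was not called (edgeR adjusted p = 0.186, and 0.0286 without follicular WT replicate 3). It was called higher in Sh3gl1-/- cells at an edgeR adjusted p of 0.0407, a call lost without any 1 of the 3 CD40L Sh3gl1-/- replicates (0.0519 to 0.101), and without follicular Sh3gl1-/- replicate 1 (0.118) or 2 (0.117) or CD40L WT replicate 2 (0.0553) or 3 (0.0527). Eno3, the muscle enolase, had log2 fold changes of -0.18 ± 0.24 and -0.26 ± 0.24 and was not called.

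Ldha, the lactate dehydrogenase subunit that favours lactate formation and whose promoter above held 2 E-boxes and the most cores, was at 242, 271 and 251 CPM in untreated WT follicular cells and at 449.9, 562 and 870.1 CPM after CD40L. For Sh3gl1-/- cells the values were 271, 255 and 254 CPM untreated and 557, 343 and 591 CPM treated. It rose by 1.27 ± 0.22 (edgeR adjusted p = 0.000257) and 0.92 ± 0.22 (edgeR adjusted p = 0.00365) on the log2 scale, with no overlap in either genotype. Ldhb, the subunit that favours pyruvate, had 6, 29 and 14 counts in untreated and 1, 6 and 1 counts in treated WT libraries, and 48, 30 and 20 against 4, 2 and 0 in Sh3gl1-/- libraries. It was called lower in both genotypes (edgeR adjusted p = 0.0252 in WT and 0.00306 in Sh3gl1-/-). The WT call was lost without follicular WT replicate 2 (0.127) or CD40L WT replicate 1 (0.0777) or 3 (0.0973). Ldhb also has 1 copy in the annotation, 53.33% of whose sequence is shared with Ldhb. That copy held 0.0% to 57.58% of the counts of both, so the counts of Ldhb are uncertain. The summed level of 7 T cell markers was 162 to 296 CPM in untreated follicular libraries and 67.1 to 106 CPM after CD40L, and its part in the Ldhb result was not tested. Slc16a1, which encodes the lactate transporter MCT1, rose by 1.16 ± 0.30 in WT and 1.08 ± 0.30 in Sh3gl1-/- cells. Slc16a3, which encodes the lactate exporter MCT4, had 0 to 13 counts per library and was tested in no comparison.

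The regulators of the pathway split. Pfkfb3, whose product makes fructose 2,6-bisphosphate, the activator of phosphofructokinase, was at 24.5, 20.2 and 21.4 CPM in untreated and 120.0, 118 and 146 CPM in treated WT cells. In Sh3gl1-/- cells it was at 21.7, 24.4 and 17.7 CPM untreated and 103, 83.9 and 136 CPM treated. It rose by 2.51 ± 0.18 (edgeR adjusted p = 1.11e-07) and 2.32 ± 0.18 (edgeR adjusted p = 2.68e-07) on the log2 scale, with a wide gap between the groups. Its relatives did not follow. Pfkfb2 was at 8.74, 9.07 and 16.8 CPM in untreated and 4.001, 5.28 and 6.79 CPM in treated WT cells, and at 9.68, 9.44 and 12.1 CPM against 6.00, 7.43 and 4.70 CPM in Sh3gl1-/- cells. It fell by 1.13 ± 0.29 and 0.81 ± 0.29 on the log2 scale; the Sh3gl1-/- call (edgeR adjusted p = 0.0387) was lost without any follicular Sh3gl1-/- replicate or without CD40L Sh3gl1-/- replicate 1 or 3 (0.0621 to 0.158). Exons of Pfkfb2 overlap those of Yod1 on the opposite strand, which had 845 to 1719 counts against 58 to 223 for Pfkfb2. Pfkfb4 was at 16.5, 15.6 and 15.8 CPM in untreated and 7.73, 11.6 and 9.79 CPM in treated WT cells. It fell by 0.74 ± 0.24 there (edgeR adjusted p = 0.0184; 0.0504 without follicular WT replicate 1 and 0.062 without CD40L WT replicate 1), and had a log2 fold change of -0.14 ± 0.24 in Sh3gl1-/- cells. Per length, Pfkfb4 led the family in untreated WT follicular cells, at 50.4% to 51.6% of its TPM, and Pfkfb3 led it after CD40L, at 81.3% to 88.5%. In untreated Sh3gl1-/- follicular cells neither led beyond the spread, with Pfkfb4 at 37.7%, 49.1% and 40.8% and Pfkfb3 at 42.7%, 39.6% and 38.7%, Pfkfb3 being first in replicate 1.

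**Figure D3:**
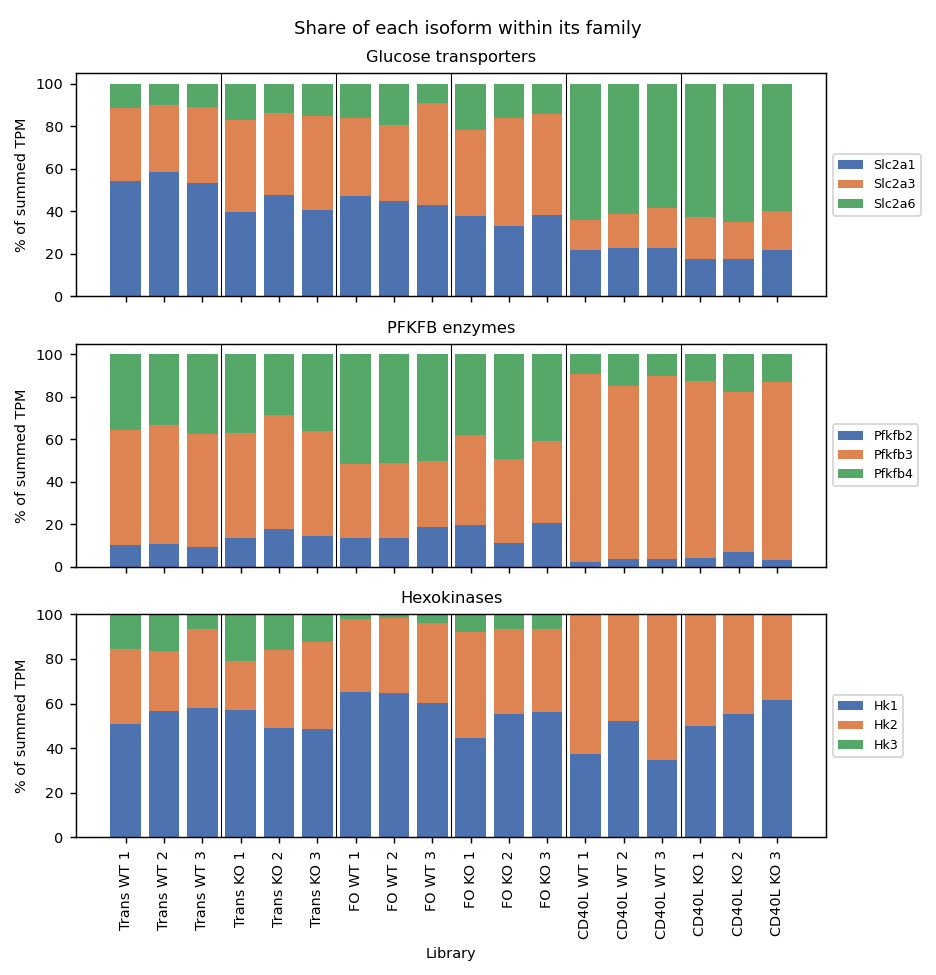
Bars show, for each of 18 libraries, the percentage of the summed TPM of 3 glucose transporters (top), 3 PFKFB enzymes (middle) and 3 hexokinases (bottom) that each gene holds. Slc2a6 takes 58.3% to 64.8% of the transporters in the 6 CD40L libraries and 9.19% to 21.5% elsewhere, and Pfkfb3 takes 75.5% to 88.5% of its family there.

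Pdk1 encodes a kinase that switches off pyruvate dehydrogenase and so holds pyruvate back from the mitochondria. It was at 28.1, 32.2 and 38.7 CPM in untreated and 7.59, 11.0 and 11.4 CPM in treated WT cells, and at 35.2, 41.2 and 34.6 CPM against 10.4, 10.8 and 11.1 CPM in Sh3gl1-/- cells. It fell by 1.75 ± 0.18 (edgeR adjusted p = 2.39e-06) and 1.80 ± 0.18 (edgeR adjusted p = 2.48e-06) on the log2 scale, opposite in direction to Ldha and Pkm. Pdk2 and Pdk3 were not called in either genotype. Their log2 fold changes were -0.76 ± 0.38 and 0.76 ± 0.33 in WT and -0.01 ± 0.37 and 0.63 ± 0.33 in Sh3gl1-/- cells. Replicate numbers tracked each other between untreated and treated WT libraries, and with that pairing kept in the fit within each genotype Pdk3 passed in WT (log2 fold change 0.86, edgeR adjusted p = 0.0491), as it did without follicular WT replicate 1 (1.26, edgeR adjusted p = 0.00578).

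Hif1a itself was not called. It was at 67.7, 53.3 and 55.5 CPM in untreated and 55.3, 38.7 and 36.1 CPM in treated WT cells, and at 58.6, 53.2 and 67.0 CPM against 41.5, 54.1 and 32.7 CPM in Sh3gl1-/- cells. The groups overlapped in both genotypes. The log2 fold changes were -0.47 ± 0.20 (edgeR adjusted p = 0.0608) and -0.50 ± 0.20 (edgeR adjusted p = 0.0548), and with the replicate pairing within genotype the edgeR adjusted p was 0.043 in WT. Leaving out CD40L WT replicate 1 (0.00792) or CD40L Sh3gl1-/- replicate 2 (0.0427) also brought the WT value past the threshold by edgeR, and leaving out either of these 2 libraries did so for the Sh3gl1-/- value (0.0289 and 0.0138).

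In the pentose phosphate pathway all 3 oxidative enzymes rose in both genotypes, and 1 of 3 non-oxidative enzymes did. Pgd, the second NADPH-yielding dehydrogenase, was at 53.4, 56.0 and 60.2 CPM in untreated and 74.1, 90.7 and 113 CPM in treated WT cells. The Sh3gl1-/- libraries were at 62.6, 66.0 and 56.1 CPM untreated and 95.7, 70.5 and 103 CPM treated. It rose by 0.69 ± 0.16 and 0.53 ± 0.16 on the log2 scale, and the Sh3gl1-/- call (edgeR adjusted p = 0.0169) was lost without follicular Sh3gl1-/- replicate 3 (0.0576) or CD40L Sh3gl1-/- replicate 1 (0.0511) or 3 (0.054). G6pdx, the dehydrogenase that controls entry to the pathway, rose by 1.06 ± 0.16 and 0.94 ± 0.17; its exons overlap those of Ikbkg on the opposite strand, which had 786 to 1334 counts. Pgls, the lactonase between them, was called higher by 0.55 ± 0.21 and 0.90 ± 0.21. A transcript of Fam129c lies wholly within the sequence of Pgls transcripts, so the counts of Pgls are uncertain. The WT call of Pgls (edgeR adjusted p = 0.0424) was lost without any of 7 libraries, namely follicular WT replicate 2 or 3, follicular Sh3gl1-/- replicate 1 or 3, CD40L WT replicate 1 or 2, and CD40L Sh3gl1-/- replicate 1 (0.0537 to 0.143).

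Tkt, the transketolase of the non-oxidative arm, rose by 1.19 ± 0.17 (edgeR adjusted p = 5.15e-05) and 1.09 ± 0.17 (edgeR adjusted p = 0.000147). Taldo1, the transaldolase and the most abundant of the 3 per length, was at 261, 247 and 246 CPM in untreated and 291, 273 and 285 CPM in treated WT cells. For Sh3gl1-/- cells the values were 224, 205 and 219 CPM untreated and 262, 233 and 249.6 CPM treated. The groups did not overlap in either genotype, but the differences were small, with log2 fold changes of 0.14 ± 0.09 (edgeR adjusted p = 0.178) and 0.18 ± 0.09 (edgeR adjusted p = 0.0997). Rpia, which makes ribose 5-phosphate, had log2 fold changes of 0.16 ± 0.20 and 0.45 ± 0.20 and was not called (edgeR adjusted p = 0.0341 in Sh3gl1-/- cells without CD40L Sh3gl1-/- replicate 1).

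**Figure D4:**
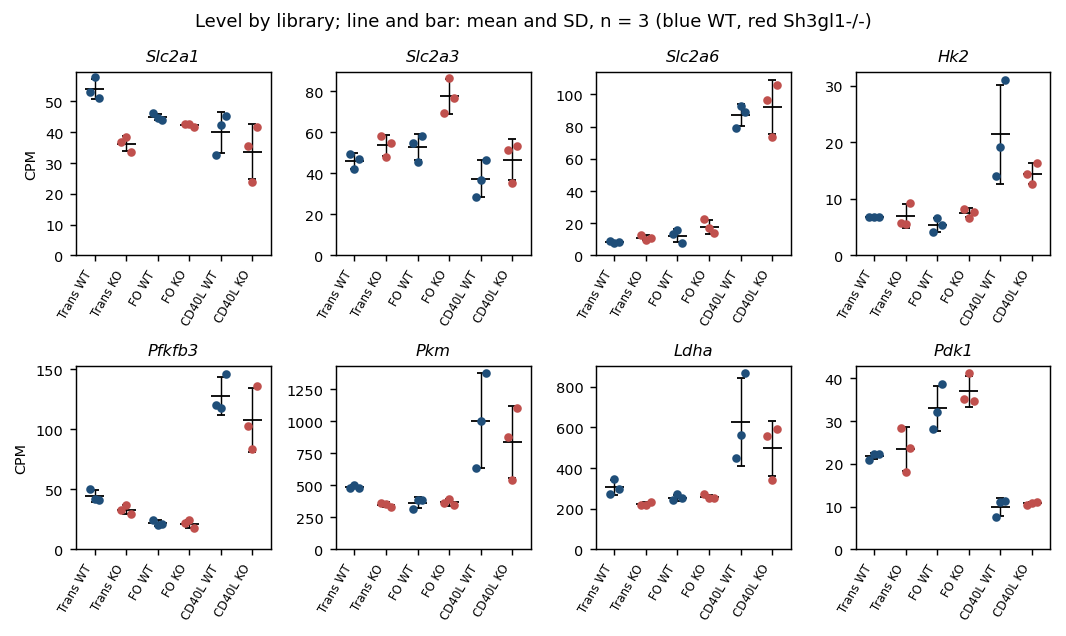
Each panel gives the CPM of 1 member in the 18 libraries, as points by group with the mean and SD (n = 3), blue for WT and red for Sh3gl1-/-; axes start at 0. Slc2a6, Hk2, Pfkfb3, Pkm and Ldha are higher in all CD40L libraries than in the follicular libraries of the same genotype, Pdk1 is lower, and Slc2a1 overlaps.

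The next comparison asked whether the response to CD40L differed between genotypes, tested as the difference between the 2 responses. No member was called among 36, where 0.0% of 14460 genes were called by edgeR. At an unadjusted p under 0.05 there were 3 members (8.33%) and 1278 of all genes (8.84%). With all genes of at least 1 count kept, edgeR called 1 member, Aldoc, and DESeq2 called 0. The median difference over the members was -0.14, Sh3gl1-/- minus WT, and over all genes 0.01. It was positive in 27.78% of members and 50.57% of all genes. The 3 members were Hk2, with a difference of -1.06 ± 0.38 (edgeR adjusted p = 0.484), Aldoc with 1.09 ± 0.38 (edgeR adjusted p = 0.476) and Gapdh with -0.40 ± 0.18 (edgeR adjusted p = 0.561). The values given above for Hk2 show that its untreated Sh3gl1-/- libraries were all above the untreated WT libraries, while 2 of 3 treated Sh3gl1-/- libraries lay within the WT range. A p that misses the threshold does not show that the responses were alike: for Slc2a6 the difference was -0.42 ± 0.31 (SE) and for Pfkfb3 -0.19 ± 0.24 on the log2 scale.

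Genotypes were then compared within each cell state. In untreated follicular cells no member was called among 35 tested, where 0.845% of 13610 genes were called by edgeR. There were 3 members (8.57%) at an unadjusted p under 0.05, beside 1481 of all genes (10.88%), and DESeq2 called 1. In CD40L cells no member was called among 34, where 0.0227% of 13188 genes were called by edgeR. There 1 member (2.94%), Aldoc, passed an unadjusted p of 0.05, beside 932 of all genes (7.07%). Its log2 difference was 0.82 ± 0.21, and DESeq2 called 0 members. The groups did not overlap for 6 members higher and 2 lower in follicular cells, where 8.07% and 7.97% of all genes did so, and for 1 higher and 1 lower in CD40L cells, where 6.21% and 7.63% did.

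The 3 in follicular cells were Slc2a3, Hk3 and Taldo1. For Slc2a3 all 3 Sh3gl1-/- libraries, at 69.6, 86.4 and 76.7 CPM, lay above the WT libraries at 54.99, 45.6 and 58.1 CPM, a log2 difference of 0.55 ± 0.12 with an edgeR adjusted p of 0.0717. By DESeq2 the adjusted p was 0.00158, and by edgeR 0.0452 with a stricter filter of 10 counts in every library of a group and 0.000347 with all genes of at least 1 count. For Hk3, at 1.28, 1.02 and 1.65 CPM against 0.453, 0.309 and 0.451 CPM, the log2 difference was 1.68 ± 0.52 (edgeR adjusted p = 0.221). Taldo1 had a log2 difference of -0.22 ± 0.08 (edgeR adjusted p = 0.297). In the same libraries the sum of 10 neutrophil markers was 63.6 to 180.2 CPM in WT and 181 to 835 CPM in Sh3gl1-/- cells, with Ly6g at 0 in all 3 WT libraries and at 0.429 to 1.20 CPM in Sh3gl1-/- libraries. The sum of 7 erythroid genes was 1436 to 3869 CPM in WT and 3006 to 9364 CPM in Sh3gl1-/- cells. The sum of 8 monocyte or macrophage markers was 117 to 149.8 and 123 to 280 CPM, and 2 of 7 T cell markers were called higher. Their part in the values of Slc2a3 and Hk3 was not tested.

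In transitional cells 4 members were lower and 1 higher in Sh3gl1-/- than in WT cells among 35 tested, where 3.73% of 13774 genes were called, 2.48% lower and 1.26% higher. The groups did not overlap for 14 members lower and 2 higher in Sh3gl1-/- cells, where 14.4% and 13.6% of all genes did so. The median log2 difference over the members was -0.12, and over all genes 0.02. These 5 calls rest on few libraries. Leaving out 1 library left 0 to 3 calls, with 0 without transitional WT replicate 2, Sh3gl1-/- replicate 1 or Sh3gl1-/- replicate 3 and 3 without each of the others. In a fit of all 18 libraries, where the spread is shared with the CD40L libraries, 0 were called, while the direction of all 5 was kept.

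The 4 lower members belong to glucose uptake, the phosphofructokinase step, and the last steps to lactate. Slc2a1 was at 53.1, 57.8 and 51.2 CPM in WT and at 36.8, 38.3 and 33.7 CPM in Sh3gl1-/- transitional cells. It was lower by a log2 difference of -0.57 ± 0.10 (edgeR adjusted p = 0.0248), with no overlap. Pfkl was at 84.9, 76.1 and 70.1 CPM against 52.2, 56.8 and 51.4 CPM, a log2 difference of -0.53 ± 0.10 (edgeR adjusted p = 0.0308). Pkm was at 478, 499.8 and 482 CPM against 365, 352 and 329 CPM, a difference of -0.48 ± 0.08 (edgeR adjusted p = 0.019). For Ldha the values were 273, 345 and 298 CPM against 219.8, 219 and 234 CPM, a difference of -0.44 ± 0.10 (edgeR adjusted p = 0.0413). In each of these genes every Sh3gl1-/- library was below every WT library. The exception was Hif1a, at 41.8, 45.8 and 44.6 CPM in WT and 57.1, 58.3 and 57.9 CPM in Sh3gl1-/- cells. It was higher by 0.39 ± 0.09 on the log2 scale (edgeR adjusted p = 0.0464), and its call was lost whichever of the 6 libraries was left out. Exons of Hif1a overlap those of Gm49321 on the same strand. Over the 18 libraries Gm49321 held 2.9% to 12.85% of the counts of both, so the level of Hif1a is less certain. In follicular cells the same 5 genes had log2 differences of -0.09 ± 0.09 for Slc2a1, -0.03 ± 0.12 for Pfkl, 0.02 ± 0.10 for Pkm, 0.03 ± 0.08 for Ldha and 0.02 ± 0.12 for Hif1a.

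Other genes moved with genotype in the transitional libraries. Of 7 erythroid genes 6 were higher in Sh3gl1-/- cells, and their sum was 2287 to 3978 CPM in WT and 4449 to 9529 CPM in Sh3gl1-/- libraries. Jchain, a gene of antibody-secreting cells, was at 406 to 648 CPM in WT and 1065 to 4513 CPM in Sh3gl1-/- libraries. The other plasma cell markers listed overlapped between the genotypes. Sdc1 was at 2.39 to 3.35 and 1.15 to 4.31 CPM and Prdm1 at 0.631 to 1.12 and 0.383 to 1.58 CPM. Tnfrsf17 was at 0.395 to 1.56 and 0.701 to 5.17 CPM. The sum of 10 neutrophil markers was 55.6 to 99.7 and 117 to 590 CPM, and 2 of the 9 tested were called higher. Of the B cell genes, Cd79a was at 4482 to 5378 CPM in WT and 3979 to 4731 CPM in Sh3gl1-/- libraries and Ms4a1 at 4293 to 5369 and 2915 to 4446 CPM, neither called. The sum of 4 transitional B cell markers was 873 to 1008 and 505 to 803 CPM, but these did not move together. Vpreb3 was at 498 to 561 and 284 to 470 CPM and Cd24a at 309 to 397 and 163 to 246 CPM. Cd93 was not lower, at 57.4 to 72.2 and 57.8 to 85.6 CPM, and Rag1 was at 3.80 CPM or less throughout. The part of these genes and cell types in the lower Slc2a1, Pfkl, Pkm and Ldha was not tested.

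The last comparison was between follicular and transitional cells, within each genotype. In WT cells 10 members were lower and 2 higher in follicular cells among 35 tested, where 25.9% of 14580 genes were called, 14.2% lower and 11.7% higher. Between the Sh3gl1-/- populations 1 member was lower and 4 higher in follicular cells, where 10.4% of all genes were called, 6.71% lower and 3.7% higher. The groups did not overlap for 13 members lower and 3 higher in WT (20.9% and 19.9% of all genes), and for 4 lower and 11 higher in Sh3gl1-/- cells (15.6% and 14.8%). The median log2 fold change of the members was -0.08 in WT and 0.06 in Sh3gl1-/- cells, and of all genes 0.03 and -0.00.

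Pfkfb3 was lower and Pdk1 higher in follicular cells of both genotypes. Pfkfb3 was at 50.6, 41.8 and 41.3 CPM in WT and 33.0, 36.8 and 29.1 CPM in Sh3gl1-/- transitional cells, all above the follicular values given before. Its log2 fold change was -1.01 ± 0.14 (edgeR adjusted p = 0.000179) in WT and -0.64 ± 0.14 (edgeR adjusted p = 0.00796) in Sh3gl1-/- cells. Pdk1 was at 20.96, 22.3 and 22.3 CPM in WT and 28.4, 18.2 and 23.6 CPM in Sh3gl1-/- transitional cells, below all follicular libraries of the same genotype. It was higher in follicular cells by 0.60 ± 0.16 in WT, where the call was lost without follicular WT replicate 3 (edgeR adjusted p = 0.0587). In Sh3gl1-/- cells it was higher by 0.65 ± 0.16, and the call was lost without transitional Sh3gl1-/- replicate 2 (0.0717) or follicular Sh3gl1-/- replicate 2 (0.0585).

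The other WT calls were small in size or in counts. Hk3 had 65, 58 and 14 counts in WT transitional and 7, 5 and 6 counts in WT follicular libraries, a log2 fold change of -3.001 ± 0.52 (edgeR adjusted p = 0.00102). In the same libraries the sum of 8 monocyte or macrophage markers was 531 to 641 CPM in transitional and 117 to 149.8 CPM in follicular cells, and all 8 were lower in follicular cells; their part in the Hk3 result was not tested. The Sh3gl1-/- value of Hk3 was a log2 fold change of -1.50 ± 0.46 (edgeR adjusted p = 0.0537, and 0.0446 with the replicate pairing within genotype). Pfkm was at 4.71, 3.20 and 3.39 CPM in transitional and 0.972, 1.60 and 1.73 CPM in follicular WT cells, a fold change of -1.39 ± 0.40 on the log2 scale. Pkm, at the values given above, was lower by a log2 fold change of -0.42 ± 0.09 (edgeR adjusted p = 0.00382). Rpia was at 18.6, 18.8 and 16.4 CPM in transitional and 12.1, 14.2 and 11.6 CPM in follicular WT cells, and had -0.50 ± 0.14. Tpi1, at 73.6, 95.9 and 83.5 CPM in transitional WT cells, had -0.39 ± 0.12 on the same scale. Slc2a1, Pfkl, Ldha and Tkt were also lower, by -0.26 to -0.36 on the log2 scale, and Hif1a was higher by 0.42 ± 0.11.

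Of these 12 WT calls, 3 (Hk3, Pkm and Pfkfb3) were kept whichever library was left out. The call of Pfkm was lost without transitional WT replicate 1 (edgeR adjusted p = 0.0759) or follicular WT replicate 1 (0.0914), and that of Hif1a without the latter (0.0659). Rpia lost its call without transitional WT replicate 1 or 2 or follicular WT replicate 1 or 3 (0.0552 to 0.0759), Tpi1 without transitional WT replicate 2 or 3 or follicular WT replicate 1 (0.0579 to 0.133), and Pfkl without transitional WT replicate 1 or 2 or follicular WT replicate 1 (0.0669 to 0.136). Tkt lost it without transitional WT replicate 2 or follicular WT replicate 1 or 3 (0.069 to 0.155), and Slc2a1 and Ldha lost theirs without any of 7 and 9 of the 12 libraries. Leaving out 1 library gave 4 to 12 calls, with 4 without follicular WT replicate 1 and 7 without transitional WT replicate 2. In the fit of all 18 libraries 4 were called. With the replicate pairing within genotype, Slc2a1 had an edgeR adjusted p of 0.0536, and Aldoc, with a log2 fold change of 0.72 ± 0.39 that was not called, passed (0.79, edgeR adjusted p = 0.0264), as it did without transitional WT replicate 2 (1.29, edgeR adjusted p = 0.0317).

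In Sh3gl1-/- cells Slc2a3 was at 58.3, 48.2 and 54.7 CPM in transitional cells, below all 3 follicular libraries, and was higher in follicular cells by 0.52 ± 0.12 on the log2 scale (edgeR adjusted p = 0.0104). Aldoa was at 485, 429.8 and 458 CPM and Eno1 at 754, 673 and 714 CPM in Sh3gl1-/- transitional cells. Both were higher in follicular cells, by 0.28 ± 0.08 (edgeR adjusted p = 0.0322) and 0.36 ± 0.07 (edgeR adjusted p = 0.00421), with no overlap. The call of Aldoa was lost without transitional Sh3gl1-/- replicate 2 or 3 or follicular Sh3gl1-/- replicate 1 or 3 (0.0759 to 0.141), and that of Eno1 in the fit of all 18 libraries (0.0947). In WT cells their log2 fold changes were 0.20 ± 0.12 for Slc2a3, -0.01 ± 0.08 for Aldoa and 0.08 ± 0.07 for Eno1. Leaving out 1 library gave 2 to 6 calls in Sh3gl1-/- cells, with 2 without transitional Sh3gl1-/- replicate 2 (Slc2a3 at an edgeR adjusted p of 0.0605), and 3 were called in the fit of all 18 libraries. With the replicate pairing within genotype Aldoc also passed (log2 fold change 1.15, edgeR adjusted p = 0.00786). It did so too with the same numbers tied across genotypes (1.12, edgeR adjusted p = 0.0344).

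**Figure D5:**
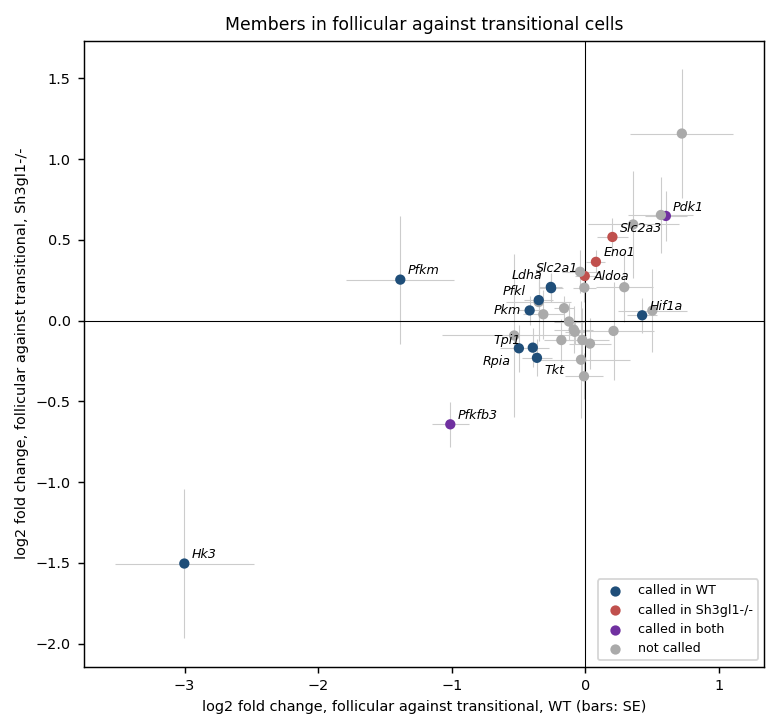
Each point is 1 of 35 members, placed by its log2 fold change in follicular against transitional cells in WT (horizontal) and Sh3gl1-/- (vertical), with bars of 1 SE and colour by where it was called. Pfkfb3 and Pdk1 were called in both; Slc2a1, Ldha, Pfkl and Pkm lie left of 0 and above 0.

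The difference between these 2 fold changes was also tested. No member was called among 35, where 0.0686% of 14580 genes were called by edgeR, 0.048% higher and 0.0206% lower. At an unadjusted p under 0.05 there were 10 members (28.57%) and 1992 of all genes (13.66%). The difference, Sh3gl1-/- minus WT, was positive in 27 members (77.14%) and in 47.74% of all genes. Its median was 0.24 over the members and -0.02 over all genes. DESeq2 called 3 members, Slc2a1, Pkm and Ldha, all positive. The edgeR differences of these were 0.47 ± 0.12 for Slc2a1 (adjusted p = 0.137), 0.48 ± 0.13 for Pkm (0.135) and 0.46 ± 0.12 for Ldha (0.149). The test uses the same transitional libraries as the comparison of genotypes above, so it gives no separate account of them.

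Other genes of glucose and pyruvate use were described from 7 lists that were named with earlier results of these data known. After CD40L, 23.6% of all genes tested were called higher and 25.7% lower in WT, and 20.6% and 21.8% in Sh3gl1-/- cells, against which the counts of each list below are to be read. Over the 7 lists together 32 of 78 genes tested were higher and 18 lower in WT, and 28 and 13 in Sh3gl1-/- cells. Of 17 TCA cycle enzymes, 14 rose in WT and 11 in Sh3gl1-/- cells after CD40L, and none fell. Idh3a, a subunit of isocitrate dehydrogenase, rose by 1.20 ± 0.14 in WT, Mdh1, a malate dehydrogenase, by 0.72 ± 0.09 and Suclg2, a subunit of succinyl-CoA ligase, by 1.01 ± 0.13. Among 10 genes of pyruvate entry to mitochondria, 6 rose and 2 fell in WT, and 6 rose and 0 fell in Sh3gl1-/- cells. Mpc1, a subunit of the mitochondrial pyruvate carrier, was at 140 to 188 CPM in untreated and 419 to 633 CPM in treated WT cells, a log2 fold change of 1.62 ± 0.17, while Dld and Pdhb, subunits of pyruvate dehydrogenase, rose by 0.93 ± 0.11 and 0.52 ± 0.09. The 2 that fell in WT were Pdpr and Pdp1, which belong to the phosphatase that reactivates pyruvate dehydrogenase.

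Among HIF pathway genes and hypoxia targets outside glycolysis, 2 rose and 7 fell of 13 tested in WT, and 2 rose, 5 fell and 6 were not called in Sh3gl1-/- cells. Adm, adrenomedullin, was at 3.11 to 6.61 CPM in untreated and 128 to 141 CPM in treated WT cells, a log2 fold change of 4.82 ± 0.21, and P4ha1, a collagen prolyl hydroxylase, rose by 0.56 ± 0.20. Bnip3l, a mitophagy receptor, fell by 0.85 ± 0.10, Kdm3a, a histone demethylase, by 0.90 ± 0.14 and Egln2, an oxygen sensor of the HIF pathway, by 1.25 ± 0.26 on the log2 scale.

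Among glucose-sensing genes and partners of MYC, 2 rose and 4 fell of 8 in WT, and 1 rose and 3 fell in Sh3gl1-/- cells. Txnip, which restrains glucose uptake, was at 206 to 239.96 CPM in untreated and 45.6 to 57.4 CPM in treated WT cells, and fell by 2.14 ± 0.12 on the log2 scale. Mlxip, another glucose-sensing gene, fell by 1.42 ± 0.20 and the MYC antagonist Mxi1 by 1.69 ± 0.34. Myc was at 107 to 127 CPM in untreated and 146 to 325 CPM in treated WT cells, with the lowest in replicate 1, and rose by 1.09 ± 0.23. Sh3gl1-/- cells had Myc at 131.5 to 151 CPM untreated and 148 to 227 CPM treated, with a log2 fold change of 0.49 ± 0.23 that was not called (edgeR adjusted p = 0.0992).

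The remaining lists were mixed. Of 9 other pentose and ribose phosphate genes, 3 rose and 1 fell in WT and 2 rose and 1 fell in Sh3gl1-/- cells, among them Rpe, the epimerase of the non-oxidative arm, with 0.77 ± 0.11 in WT. Of 12 genes of gluconeogenesis and glycogen, 5 rose and 1 fell in each genotype, with Pygl, a glycogen phosphorylase, higher by 1.94 ± 0.43 and Pygm, another, lower by -2.79 ± 0.42 on the log2 scale in WT. Of 9 other transporters and glycolytic isoforms, 0 rose and 3 fell in WT (Slc16a7, Adpgk and Bpgm), and 1 rose and 3 fell in Sh3gl1-/- cells.

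Between genotypes, 0 genes of these 7 lists were called by edgeR in follicular or CD40L cells, where 0.845% and 0.0227% of all genes were. At an unadjusted edgeR p under 0.05 there were 8 of 75 and 5 of 78, beside 10.88% and 7.07% of all genes. In transitional cells 2 of 77 were called, 2.6% beside 3.73% of all genes, namely Suclg1 of the TCA cycle (log2 difference -0.48 ± 0.08) and Max, the partner of MYC (-1.05 ± 0.23), both lower in Sh3gl1-/- cells. Between follicular and transitional cells, 8 of 17 TCA cycle genes were called lower in follicular WT cells, where 14.2% of all genes were, and 0 in Sh3gl1-/- cells, where 6.71% were. In Sh3gl1-/- cells 2 of the 17 had an unadjusted edgeR p under 0.05, beside 23.88% of all genes. The difference between the genotypes' fold changes was called by edgeR for 0 of 17, where 0.0686% of all genes were called. For that difference 8 of the 17 had an unadjusted edgeR p under 0.05, beside 13.66% of all genes.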

How the data were processed

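Gene expression was measured by poly(A) RNA sequencing in 18 libraries, 3 for each of 6 groups taken from the labels. The authors estimated expected counts per gene with RSEM from their reads, and these were deposited without normalization. The authors' deposited TPM and FPKM values are scaled to transcript length, TPM to a fixed library sum and FPKM to the number of fragments. The submitters' processing notes name cutadapt 1.9.1, STAR 2.5.2a and RSEM 1.3.0 with GRCm38, whereas the methods name TopHat and Cufflinks. The labels name a stranded KAPA kit and the methods SMART-Seq HT with Nextera XT, and the strand setting of the counting is not given in the sources used here. Reads of genes that overlap on opposite strands may therefore not be told apart. RSEM divides reads between genes that share sequence by estimate, so genes with such copies are less certain. All 54 columns of values were matched to libraries by name, and identifiers were matched to GENCODE M21 symbols (51719 of 51912).

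Expected counts, of which 10.3% to 11.6% per library were not whole, were rounded. Library totals were 12404665 to 18366011, and for low counts the depth sets the precision, with 3 counts taken as the floor. Counting error is the only error that the floor covers. Tests used R 4.3.3 with edgeR 4.0.16, limma 3.58.1, filterByExpr, TMM scaling and the quasi-likelihood test, with Benjamini-Hochberg adjustment over all genes tested and a threshold of 0.05. Follicular and CD40L libraries of both genotypes (12) were fitted together for the response and its difference, and follicular and transitional libraries likewise. Genotypes were compared in fits of 6 libraries. These main fits held a coefficient for each group and no term for replicate, so their p values and SEs leave out the pairing described below. The WT and Sh3gl1-/- responses share no libraries, but the follicular libraries enter both the response and the comparison with transitional cells, and also the comparison of genotypes. The fits were tested on simulated counts with known changes.

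The members and the gene lists were chosen with earlier results of these data known. Values in every library are given for the member with the highest mean TPM in each role and, in each comparison, for up to 6 called members with the largest change in each direction; for the other lists, up to 3 members in each direction with the lowest adjusted p in the WT response are named. Shared replicate numbers were checked by correlating deviations from the group means over 15117 genes. Same-numbered libraries correlated above 0.1 in every pair for WT follicular and CD40L (0.136 to 0.224), WT transitional and follicular (0.103 to 0.242) and Sh3gl1-/- transitional and follicular libraries (0.115 to 0.263), and these were taken as paired. They did not for Sh3gl1-/- follicular and CD40L libraries (0.03 to 0.119). Each of these still lay above all differently numbered pairs of the same groups (-0.094 to 0.003), so pairing there is not settled. Nor did they between genotypes (-0.088 to 0.101). Alternatives were RLE scaling, library totals alone, DESeq2 1.42.0, a looser and a stricter filter, all 18 libraries in 1 fit, the replicate block, and each library left out; the block within genotype was added after the data were seen.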

Additional observations from a re-analysis of the deposited data

Results flagged for a closer look

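Members whose libraries moved one way in one group and the opposite way in the other, without overlap, are given here with the difference of the log2 differences, Sh3gl1-/- minus WT. Slc2a1 was lower in follicular than in transitional cells in WT and higher in Sh3gl1-/- libraries, a difference of 0.4676 (edgeR adjusted p = 0.137). Ldha did the same, by 0.4578 (edgeR adjusted p = 0.149), and Pgk1 by 0.2368 (edgeR adjusted p = 0.334). For Pgk1 the genotype difference was likewise opposite in transitional and follicular cells, the same quantity of 0.2368. Pfkm was lower in Sh3gl1-/- than in WT transitional libraries and higher in follicular libraries, a difference of 1.6392 (edgeR adjusted p = 0.229), at 15 to 69 counts per library. The interaction missed the threshold in each case.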

How the results depend on the processing

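The counts of called members in the CD40L response stayed within 1.5 times under every alternative, with 23 to 26 in WT and 21 to 27 in Sh3gl1-/- cells when 1 library was left out. The difference of the responses, 0 members, became 1 with all genes of at least 1 count (Aldoc), as did the genotype difference in CD40L cells. The genotype difference in follicular cells, 0, became 1 under DESeq2, with at least 1 count and with at least 10 counts in every library of 1 group (Slc2a3 each time). In transitional cells the 5 calls became 0 in the fit of all 18 libraries and 0 to 3 when 1 library was left out. With the replicate block they became 0, although same-numbered libraries of the genotypes share only a number. The follicular against transitional calls in WT, 12, became 4 in the fit of 18 libraries and 4 to 12 when 1 library was left out. In Sh3gl1-/- cells the 5 calls became 8 with at least 1 count, 3 in the fit of 18 libraries and 2 to 6 when 1 library was left out. The difference of these, 0, became 3 under DESeq2 and 1 with at least 1 count (Pkm). The replicate block gave 25, 25, 12 and 6 calls in the 2 responses and the 2 follicular against transitional comparisons, and changed no other call than those named. In the Sh3gl1-/- response, where pairing by number is not settled, the block brought Hk1 to an edgeR adjusted p of 0.0487. With the block within genotype Hk1 (0.0438), Eno1 (0.0494) and Hif1a (0.0395) passed by edgeR and Eno2 (0.0579) did not.

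Signs turned only for members that were not called and lay near 0, and the cause was not tested. Pdk2 in the Sh3gl1-/- response was 0.0088 with at least 1 count, 0.0179 with at least 10, 0.0099 in the fit of 18 libraries and 0.0214 with the replicate block within genotype, and -0.18 to 0.32 when 1 library was left out. With library totals alone, Pkm (-0.0127), Ldha (-0.0014) and Hif1a (-0.0149) turned in the follicular genotype difference, and Aldoa (0.0295) in WT follicular against transitional cells. With 1 library left out, Pfkp ranged from -0.0038 to 0.42 in the WT response and from -0.15 to 0.097 in the Sh3gl1-/- response, where Pfkm ranged from -0.14 to 0.47 and Pfkfb4 from -0.36 to 0.20. In the follicular genotype difference Pfkl ranged from -0.14 to 0.028, Pkm from -0.078 to 0.070, Ldha from -0.0066 to 0.078 and Hif1a from -0.077 to 0.13. Between follicular and transitional cells Aldoa ranged from -0.076 to 0.036 in WT and Pfkm from -0.042 to 0.57 in Sh3gl1-/- cells. Depth limits Hk3, Ldhb, Eno2 and Slc16a3, whose counts were near the floor in some groups.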
